A study of Homo sapiens with 2 samples.

Results

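The genes described here are 10 human genes that encode mitochondrial acyl-CoA dehydrogenases and other enzymes of fatty acid beta-oxidation. The members were ACADS, ACADM, ACADVL, ACADSB, ACAD8, ACAD9, HADHA, HADHB, ETFA and ETFDH. They were taken by gene symbol from 5 tables of splicing events, which name 12254 genes in all, and accounted for 295 of the 159490 events listed. The skipped-exon table held 200 of these events, in 89 distinct exons of the members, and it names 11965 genes. All 10 members had events in that table.

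The tables compare 1 RNA-seq library of untreated HEK293T cells with 1 library of HEK293T cells kept for 6 h in medium with amiloride at 300 µg/mL, and both were made from polyadenylated RNA. HEK293T is an established line from human embryonic kidney, and amiloride is a diuretic that blocks epithelial sodium channels. The libraries belong to a study of exons that are prone to skipping, in which amiloride was examined as a drug that alters splicing. The tables hold no expression levels, so the identity of the cells could not be checked against marker genes.

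Beta-oxidation shortens fatty acids inside mitochondria through repeated cycles of dehydrogenation, hydration, a further dehydrogenation and thiolytic cleavage. Acyl-CoA dehydrogenases carry out the opening step, each on acyl chains of its own length or branching, and pass electrons through the electron transfer flavoprotein to the respiratory chain. The trifunctional protein completes the cycle for long chains. Inherited loss of these enzymes causes disorders of fasting metabolism, and splice-disrupting variants are among the known causes.

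For each event the deposited tables list a false discovery rate (FDR) and an inclusion level difference. The inclusion level estimates, from 0 to 1, the share of transcripts joining the flanking exons that hold the exon. Reads on the exon body also count as inclusion, whichever exons their transcript joins to it. With flanking exons that are not its neighbours, the level can therefore depart from that share. The difference is the level in the first numbered library minus that in the second. The headers do not say which number is the amiloride library, so a positive value cannot be read as a gain or a loss after amiloride. For the same reason the values of each library were not used, the reads behind each event included. An event was called at a FDR under 0.1, and an exon was termed sensitive when any of its events was called and resistant when none was. The calls compare these libraries and not the conditions, since there is no replicate. Events of 1 exon share reads and are not independent of each other. The same holds for events of different exons with the same flanking exons, which share the junction that joins those flanks.

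Of the 200 skipped-exon events in the 10 genes, 37 were called, which is 18.5%. The share called among all events listed was 27.5%. By exon, 31 of the 89 exons were sensitive, or 34.8%, beside 35.8% of all exons in the table. Members' exons were often listed in several events, up to 7 for a single exon, and 17 of the 31 sensitive exons also had an event that was not called. The differences from these background shares were not tested. Among the called events 33 were positive and 4 negative. Over the whole table, 26.4% of events were called with a positive difference and 1.1% with a negative difference. The median difference over the 200 events was 0.006, beside 0.017 over the table. The called events had a median size of 0.109, close to the 0.108 of all called events. Of the 37, 19 were at least 0.1 in size, beside 52.8% of all called events.

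**Figure D1:**
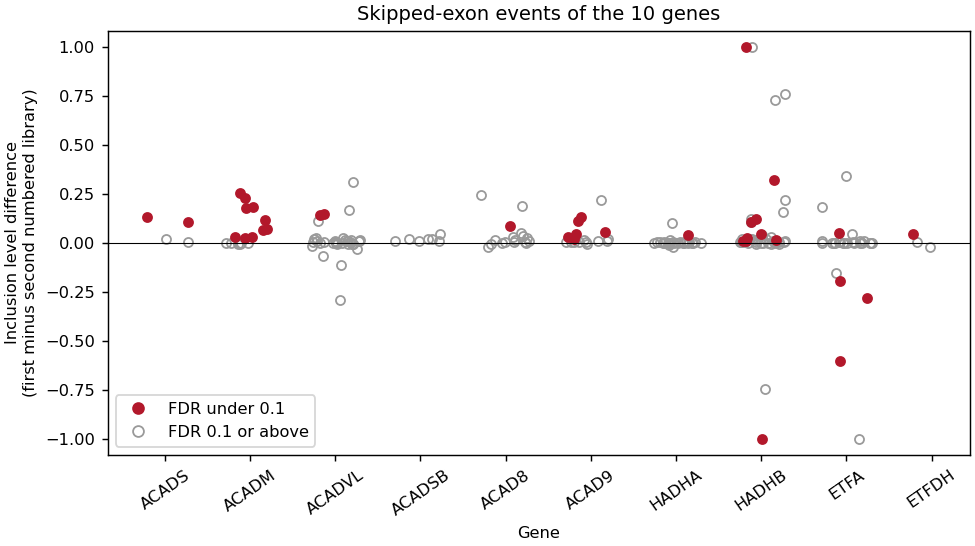
Inclusion level difference (vertical axis, first minus second numbered library, from -1 to 1) of the 200 skipped-exon events, by gene, with a small random sideways shift. Filled points are the 37 events at a FDR under 0.1 and open points the others. The called events of the 6 acyl-CoA dehydrogenases all lie above 0, and the 4 called events below 0 belong to HADHB and ETFA.

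The acyl-CoA dehydrogenases differed widely among themselves. Their 6 genes held 98 skipped-exon events, of which 21 were called, all with a positive difference. In these events 17 of 49 exons were sensitive. The share ran from 7 of 7 exons in ACADM to 0 of 5 in ACADSB.

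ACADM, the dehydrogenase of medium-chain fatty acids and the gene most often affected in inherited disorders of beta-oxidation, had the highest share of sensitive exons. Its 16 events gave 10 calls, with differences between 0.023 and 0.256. All 7 exons stayed sensitive at a FDR under 0.01. Counting only events of canonical exons flanked by their neighbours left 4. That count leaves out the long form of exon 2, which is not canonical and was called between exons 1 and 3. The transcript has 12 exons, and exons 2, 5, 6, 8, 9 and 10 were listed, exon 2 in a long and a short form. The long form of exon 2 had a difference of 0.256 and the short form 0.177, both with a FDR listed as 0, and the former was the largest difference listed for the gene. The forms begin at 3' splice sites (3'SS) that lie 12 bases apart. An event between these sites had a difference of only -0.002 with a FDR of 0.862. The choice between the sites was not called, while skipping of either form was. The sequences show both forms on GRCh37, with the exon in capitals and the adjoining intron bases in lower case, so that the added stretch can be read from the start of the long form. The long form lies at chr1:76194074-76194173 and the short form at chr1:76194086-76194173, both on the plus strand.
ACADM exon 2, long form: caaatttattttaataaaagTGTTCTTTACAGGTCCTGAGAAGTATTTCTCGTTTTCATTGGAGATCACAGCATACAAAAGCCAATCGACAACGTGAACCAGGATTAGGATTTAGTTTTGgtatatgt
ACADM exon 2, short form: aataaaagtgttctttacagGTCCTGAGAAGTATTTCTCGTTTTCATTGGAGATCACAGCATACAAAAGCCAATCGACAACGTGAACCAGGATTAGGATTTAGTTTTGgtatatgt

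Exons 5 and 6 of ACADM were called together when the flanking exons were 4 and 7. Exon 5 then had a difference of 0.227 and exon 6 of 0.186, both with a FDR listed as 0. Against its neighbours, exons 4 and 6, exon 5 was still called, with a smaller difference of 0.070. Exon 6 against exons 5 and 7 was at -0.001 with a FDR of 1. The value of exon 6 thus depended on the flanking exon, and the event that gave its call is one that joins exon 4 to exon 7.

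A similar set of events covered exons 8, 9 and 10 of ACADM. Exon 8 differed by 0.065 against its neighbours (FDR listed as 0) and exon 10 by 0.023 (FDR 0.000755). Exon 9 was called against exons 7 and 11 only, with a difference of 0.119 and a FDR of 0.00848. Against exons 8 and 10 it stood at 0.001 with a FDR of 1. All 7 sensitive exons are coding, and several were called in events that share a skipping junction.

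ACADS, the dehydrogenase of short-chain fatty acids such as butyrate, had 4 exons listed, in 1 event each, and 2 were sensitive. Exon 8 differed by 0.109 against exons 7 and 9, with a FDR of 6.92e-05. Exon 5 differed by 0.134 with a FDR of 0.000475, against exons 2 and 6. Exons 3 and 4 were not called, at 0.018 and 0.004. Exon 8 is shown because both of its splice sites match the consensus poorly: its 3'SS had the lowest motif score of all 89 exons. It lies at chr12:121176623-121176718 on the plus strand of GRCh37, and capitals mark the exon.
ACADS exon 8: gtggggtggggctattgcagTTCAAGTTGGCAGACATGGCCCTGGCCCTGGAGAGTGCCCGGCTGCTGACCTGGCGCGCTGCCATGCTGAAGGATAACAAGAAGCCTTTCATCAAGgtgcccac

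ACADVL, which acts on very long chains at the inner mitochondrial membrane, had 15 exons listed in 37 events, more exons than any other member. Only 2 of these exons were sensitive, each in the single event that listed it. Exon 3 differed by 0.148 with a FDR of 9.92e-09, and exon 15 by 0.142 with a FDR listed as 0, both against their neighbours. The remaining 13 exons held values of up to 0.313 in size that were not called. Exon 11 alone gave 0.313 in an event flanked by exons 5 and 13 and -0.290 in another flanked by exons 6 and 13. Its event against exons 10 and 12 stood at 0.003. The sensitive exons lie at chr17:7123783-7123848 and chr17:7127465-7127562 on the plus strand of GRCh37. They are shown because they were the only skipped-exon calls in a gene of many short introns, with capitals marking the exon.
ACADVL exon 3: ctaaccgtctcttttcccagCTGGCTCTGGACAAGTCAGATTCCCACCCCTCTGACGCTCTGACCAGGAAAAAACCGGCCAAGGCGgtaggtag
ACADVL exon 15: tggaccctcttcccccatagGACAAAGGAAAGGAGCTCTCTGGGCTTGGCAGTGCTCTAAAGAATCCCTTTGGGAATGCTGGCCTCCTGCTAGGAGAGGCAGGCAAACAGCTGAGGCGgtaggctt

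ACADSB and ACAD8 act on branched acyl-CoAs from the breakdown of isoleucine and valine. ACADSB was the 1 member without a called skipped-exon event. All of its 7 events had a positive difference, between 0.008 and 0.047, and the largest belonged to exon 3 with a FDR of 0.278. ACAD8 had 6 exons listed in 17 events, and only exon 5 was sensitive. It was called against exons 3 and 6, with a difference of 0.087 and a FDR of 0.0164. An event of the same exon against exons 1 and 7 had a larger value of 0.244 but a FDR of 0.301.

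ACAD9, which is needed for the assembly of respiratory complex I and also has long-chain acyl-CoA dehydrogenase activity, had 5 sensitive exons of 12. Among the called exons, exon 10 had the lowest FDR, 1.87e-08, and the largest difference, 0.133, in its only event, which is flanked by exons 8 and 11. An event of exon 11 had a difference of 0.221 and was not called, with a FDR of 0.930. Exon 2 was called in both of its events. Its difference was 0.054 (FDR 0.000288) when the first exon ended at its canonical 5' splice site (5'SS) and 0.112 (FDR 1.56e-06) when the first exon ended further downstream. Exons 4, 5 and 12 were called at 0.045, 0.031 and 0.018. Exon 10 of ACAD9 lies at chr3:128622905-128622975 on the plus strand of GRCh37, with capitals again for the exon.
ACAD9 exon 10: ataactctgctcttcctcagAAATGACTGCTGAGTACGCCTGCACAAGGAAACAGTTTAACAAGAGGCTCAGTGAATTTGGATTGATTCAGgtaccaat

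**Figure D2:**
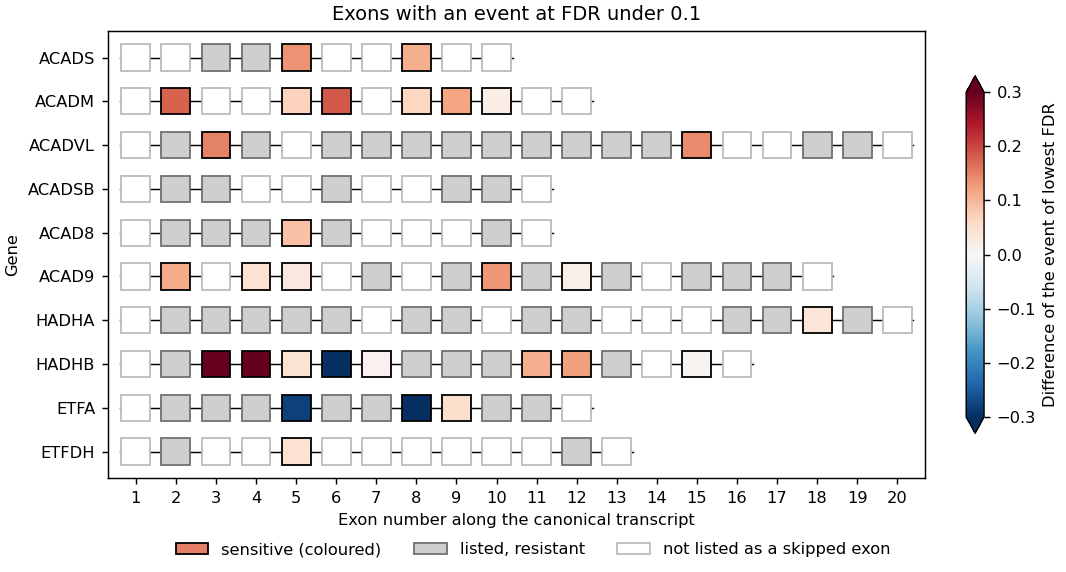
Exons of the canonical transcript of each gene (horizontal axis, exon number). Coloured boxes are sensitive exons, with the colour giving the difference of the event of lowest FDR and arrows on the scale marking values beyond 0.3 in size, grey boxes are resistant exons, and white boxes are not listed as skipped exons. Every listed exon of ACADM is coloured, while ACADVL and HADHA are mostly grey. Exon 6 of HADHB and exons 5 and 8 of ETFA are blue.

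The trifunctional protein is built from alpha subunits, encoded by HADHA, and beta subunits, encoded by HADHB. HADHA carries the hydratase and hydroxyacyl-CoA dehydrogenase activities for long chains and HADHB the thiolase. The genes lie head to head on chromosome 2, where the canonical HADHA transcript starts at position 26467500 on the minus strand and that of HADHB at 26467807 on the plus strand. Of their exons, 1 of 13 exons was sensitive in HADHA and 9 of 14 in HADHB. At a FDR under 0.01 the counts were 1 in HADHA and 3 in HADHB. When only events of canonical exons flanked by their neighbours were counted, they were 1 and 4. This difference between the genes was not tested, and the reads behind their events were not used.

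In HADHA only exon 18 was sensitive. It differed by 0.039 against its neighbours with a FDR listed as 0, and its other event stood at 0.003. The median difference over the 28 events of the gene was 0.002. In HADHB 10 of 43 events were called. Exon 11 had a FDR listed as 0 and a difference of 0.109 against its neighbours. Exon 12, of 48 bases, differed by 0.122 with a FDR of 8.91e-09 in its only event, which is flanked by exons 10 and 13. Exon 5, of 45 bases, differed by 0.044 against its neighbours with a FDR of 1.11e-11. Exons 7 and 15 were called with small differences of 0.012 and 0.008. An exon of 83 bases that is in no annotated transcript of the gene, at chr2:26483849-26483931 between exons 3 and 4, was called at 0.015 with a FDR of 0.0178. Its 5'SS is an annotated site and its 3'SS is not.

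The largest values of HADHB came from events with distant flanking exons. Exon 3, of 45 bases, had a difference of 1 against exons 2 and 8, with a FDR of 0.0487, and exon 6 had a difference of -1 against exons 3 and 8, with a FDR of 0.0168. A value of this size means that an exon was fully included in 1 library and absent from the other by the reads of that event. Against its neighbours exon 3 stood at 0.018 with a FDR of 0.247. Of its other events, 4 had sizes between 0.731 and 1 and were not called, and 1 of those was negative. Exon 4 was called at 0.320 against exons 2 and 6 (FDR 0.0677) and stood at 0.005 against its neighbours. Exons 11 and 12 are adjacent and separated by an intron of 79 bases, at chr2:26505713-26505792 and chr2:26505872-26505919 on the plus strand of GRCh37. They are shown because they were the only exons of HADHB called both at a FDR under 0.01 and at a size of at least 0.1, and capitals mark the exon.
HADHB exon 11: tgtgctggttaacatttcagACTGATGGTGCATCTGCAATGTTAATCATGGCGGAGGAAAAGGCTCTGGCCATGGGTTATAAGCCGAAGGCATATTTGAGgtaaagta
HADHB exon 12: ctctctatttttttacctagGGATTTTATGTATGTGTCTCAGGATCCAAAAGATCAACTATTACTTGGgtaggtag

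ETFA encodes the alpha subunit of the electron transfer flavoprotein, and ETFDH the oxidoreductase that hands its electrons to ubiquinone. ETFA held 3 of the 4 negative calls among all members, and those against exons 1 and 10 share the same skipping junction. Exon 8 differed by -0.601 against exons 1 and 10, with a FDR of 4.62e-09, and by -0.193 against exons 5 and 10, with a FDR of 0.0329. Against its neighbours it stood at -0.002 with a FDR of 1. Exon 5 was called at -0.280 against exons 1 and 10 (FDR 0.0746) and stood at 0 against its neighbours. Exon 9 was the only exon of ETFA called with a positive difference, 0.053, with a FDR listed as 0. It is followed by an intron of 43013 bases, the longest beside any sensitive exon of the members. An event of exon 6 had a difference of -1 and was not called, with a FDR of 0.428. In ETFDH exon 5 was sensitive, with a difference of 0.045 and a FDR of 0.00256. Exons 2 and 12, the others listed, stood at -0.022 and 0.007. Exons 8 and 9 of ETFA lie at chr15:76576098-76576166 and chr15:76566753-76566835 on the minus strand of GRCh37. They are adjacent, were called in opposite directions, and are shown with the exon in capitals.
ETFA exon 8: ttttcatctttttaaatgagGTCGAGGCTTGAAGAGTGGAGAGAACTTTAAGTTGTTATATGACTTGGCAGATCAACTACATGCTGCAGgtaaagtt
ETFA exon 9: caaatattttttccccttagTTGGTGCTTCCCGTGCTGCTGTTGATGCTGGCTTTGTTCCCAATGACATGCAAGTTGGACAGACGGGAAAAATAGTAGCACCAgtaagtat

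Differences of at least 0.5 in size and negative calls arose only with flanks that were not the neighbours, and only in HADHB and ETFA. The median difference was 0.0055 when both flanks were the neighbours and 0.009 with other flanks. When both flanks were the neighbours of the exon in the canonical transcript, 16 of 70 events were called, all of them positive, and none of the 70 reached 0.5 in size. With other flanks 21 of 130 events were called, 17 positive and 4 negative, and 8 reached 0.5 in size, of which 3 were called. All 4 negative calls came from events with 3 or more canonical exons between the flanks. In that class 10 of 78 events were called, with differences from -1 to 1. The reads on the junctions of such events were not used, and their part in these values was not tested.

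**Figure D3:**
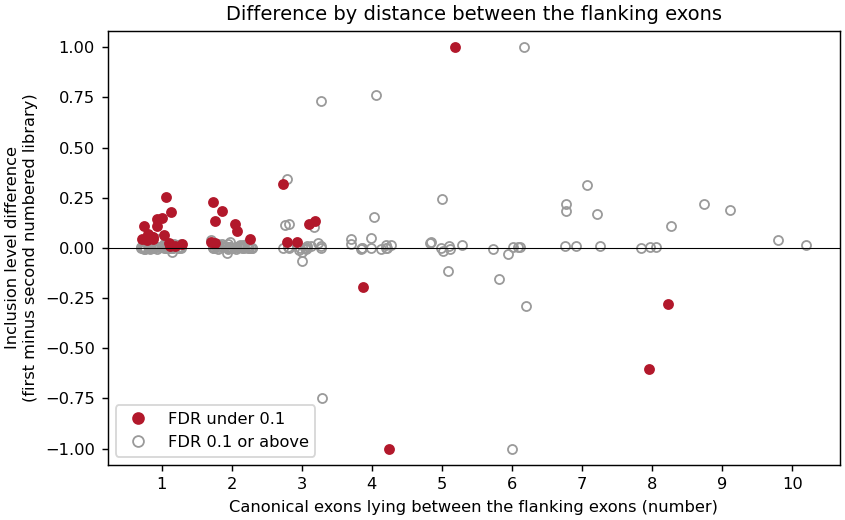
Inclusion level difference (vertical axis) by the number of canonical exons between the flanking exons (horizontal axis, with a small random sideways shift). Filled points were called at a FDR under 0.1. With 1 or 2 exons between the flanks all values lie between -0.023 and 0.256, and with 3 or more they spread from -1 to 1. Not drawn are 2 events, that of the unannotated HADHB exon and that of ACAD9 exon 2 with the longer first exon.

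In the mutually exclusive exon table the members had 91 events. Such an event compares transcripts that hold 1 of a pair of exons, and the inclusion form held the exon that comes first in the transcript. Of the 91 events 25 were called, beside 39.3% of events in the whole table. Their sizes were small, with a median of 0.040 and a maximum of 0.287. HADHB held 11 of the 25, all negative and between -0.287 and -0.010. Exons 4 and 5 of HADHB gave -0.087 with a FDR of 1.93e-10 between exons 1 and 6, and exons 12 and 13 gave -0.086 with a FDR of 1.25e-12. HADHA held 4, all positive and between 0.025 and 0.037. ETFA held 5, of which 4 were positive. The pair of exons 9 and 10 of ETFA differed by 0.040 and the pair of exons 2 and 8 by 0.045, both with a FDR listed as 0. ACADM held 3 of 5, and the pair of exons 5 and 6 had a difference of 0.061 between exons 4 and 7. ACADSB, with no skipped-exon call, had its only pair called, exons 9 and 10, at -0.078 with a FDR of 0.0627. ACADVL had 1 of 16 called, at 0.062. None of 7 events in ACAD8 and none of 4 in ACAD9 was called. ACADS and ETFDH had no event in this table.

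The remaining tables held 4 events of the members. At the 5'SS of the first exon of ACAD9, a site 176 bases downstream of the canonical site was compared with the canonical one in 2 events, and both were called, beside 28.2% of events in the whole table. Joined to exon 2, the longer form differed by -0.048 with a FDR of 0.0273. Joined to exon 3, it differed by 0.186 with a FDR of 0.0568. The sign thus differed between the junction to exon 2 and that to exon 3, and exon 2 was itself sensitive. The 3'SS event of ACADM described above was not called, beside 23.0% called in its table. The first intron of ACADVL, of 75 bases, gave the only retained intron event. It was called at -0.075 with a FDR of 0.00116, beside 48.2% of retained intron events in the whole table.

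Splice site sequence was compared with the calls, since it was not used to choose the genes. The score of a site is the sum over its bases of the log2 ratio of the base frequency at annotated sites to an equal frequency, over 9 bases for a 5'SS and 23 bases for a 3'SS. The 31 sensitive exons of the members had a median 5'SS score of 6.82 and the 58 resistant exons 8.46. Over the whole table the medians were 7.96 for sensitive and 8.16 for resistant exons. At the 3'SS the medians were 7.71 in sensitive and 8.92 in resistant exons of the members, beside 9.04 and 9.30 in the whole table. The ranges overlapped throughout. Exon 8 of ACADS had a 5'SS score of 3.59 and a 3'SS score of -0.93. Both forms of exon 2 of ACADM shared a 5'SS with a score of 3.70, and the 3'SS of the long form scored 2.75 and that of the short form 7.23. Some sensitive exons had strong sites on both sides: exon 5 of ETFA scored 11.88 and 10.12, and exon 6 of HADHB 10.96 and 11.02. The calls of those exons were negative and came from distant flanks. A weak site was not always called either, since exon 3 of ACADSB had a 5'SS score of 3.41 and a FDR of 0.278. Of the 89 exons 88 lay between AG and GT. Exon 8 of ACADVL was the exception, with a 5'SS that reads CAGgcaacc, where capitals mark the last exon bases, and it was resistant.

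**Figure D4:**
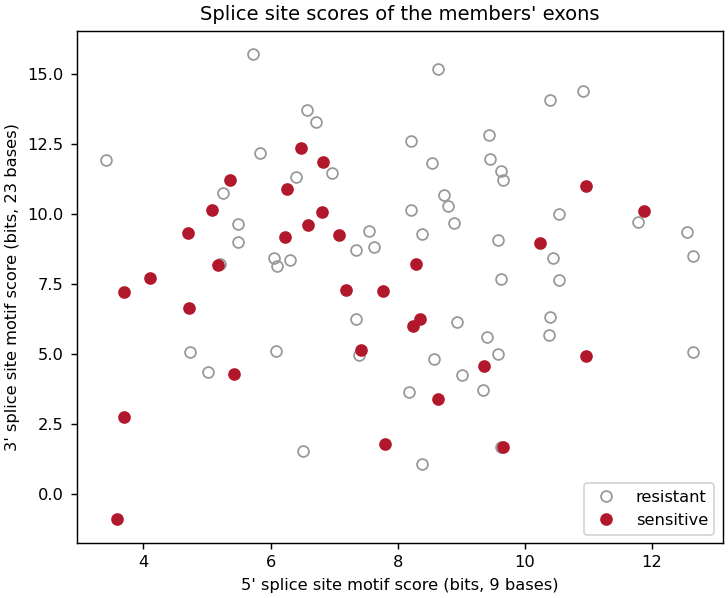
Motif score of the 5'SS (horizontal axis, bits over 9 bases) and of the 3'SS (vertical axis, bits over 23 bases) of the 88 member exons between AG and GT. Filled points are sensitive and open points resistant exons. The sensitive exons sit further to the left, with a median 5'SS score of 6.82 beside 8.46 over all 58 resistant exons, and both kinds span most of the range.

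Sensitive exons of the members were shorter, with a median length of 96 bases beside 111.5 in resistant ones. The corresponding medians over the whole table were 102 and 123. The introns on either side were longer in the members' sensitive exons, with medians of 1433 bases before and 1453 bases after the exon, beside 679.5 and 693 for resistant exons. ACADVL with its short introns supplied 13 of the resistant exons and ACADM none, and the part of gene structure in these medians was not tested.

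The effect of skipping on the reading frame was read from the canonical transcripts, for the form without the exon that each called event compares. An event with distant flanks skips to a form that lacks every exon between them, so the bases removed are those of all these exons. Such forms were read for 35 of the 37 called events, those whose exon and flanks are numbered in the canonical transcript. The unannotated exon of HADHB was left out, and without it exons 3 and 4 are joined as in the canonical transcript. In 12 of the 35 the bases removed are a multiple of 3. The other 23 would create a stop codon more than 50 bases before the last exon junction, a position from which nonsense-mediated decay is commonly triggered. By single exon, 11 of 29 sensitive and 26 of 58 resistant canonical exons had a length that is a multiple of 3, beside 38.8% of all exons listed. Loss of the exon alone would create such a stop for 18 of the 29 and 26 of the 58. These shares were not tested against each other. In ACADM, the reading frame of 421 codons would be cut to 47 without exon 2, to 104 without exon 5 and to 106 without exons 5 and 6, the form to which the call of exon 6 belongs. The form of ACADM without exons 8, 9 and 10 would stop after 212 codons. Both called events of ACADS would keep the frame, with 274 of 412 codons without exons 3, 4 and 5 and 380 without exon 8. For ACADVL, 633 of 655 codons would remain without exon 3, and 527 would be read without exon 15 up to an early stop. The form of ACAD9 without exons 9 and 10 would keep 572 of 621 codons. In HADHB, the frame of 474 codons would stop early after 344 without exon 11 and after 328 without exons 11 and 12, the form compared for exon 12. The events of HADHB with differences of 1 and -1 skip to in-frame forms of 348 and 363 codons. In ETFA, the form without all exons from 2 to 9 would be in frame but hold only 74 of 333 codons, while the form without exons 6 to 9 would stop early after 177 codons and that without exon 9 after 271. HADHA would end after 639 of 763 codons without exon 18, 111 bases before the last junction. These are readings of the annotation, and neither protein nor RNA decay was measured.

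The other genes of fatty acid oxidation gave a share close to that of the members. Of 31 such genes 29 were listed, and ACSL5 and ACADL were not. They held 191 exons, of which 66 were sensitive, or 34.6%, and 84 of their 355 events were called. Of these calls 83 were positive, and the negative one, at -0.711, was in ECI2, an enoyl-CoA isomerase. By role, 17 of 40 exons were sensitive in the genes of acyl-CoA activation and the carnitine shuttle, 18 of 48 in peroxisomal oxidation, 15 of 42 in other acyl-CoA dehydrogenases, 9 of 30 in the mitochondrial spiral and 7 of 28 in ketone and branched-chain steps. Among genes with at least 5 listed exons the highest shares were 7 of 11 in ACSL3, a long-chain acyl-CoA synthetase, 5 of 8 in ACAA1, the peroxisomal thiolase, and 7 of 12 in ACOX3, a peroxisomal oxidase of branched acyl-CoAs. No exon was sensitive in CPT1C, SLC25A20, ECHS1, ACAA2, ECI1, DECR1, ETFB, HIBCH or HIBADH. ETFB, the beta subunit that pairs with ETFA, had 3 exons listed in 7 events without a call.

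**Figure D5:**
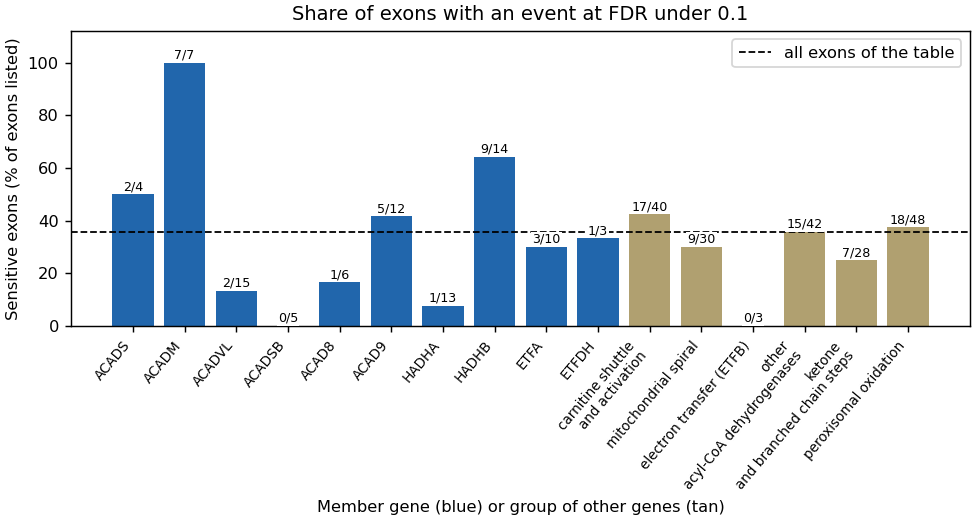
Sensitive exons as a percentage of exons listed (vertical axis, from 0) for each member (blue bars) and for the groups of other fatty acid oxidation genes (tan bars), with sensitive over listed exons above each bar. The dashed line is the share over all exons of the table, 35.8%. ACADM reaches 7 of 7 and HADHB 9 of 14, while ETFDH, ETFA, ACAD8, ACADVL, HADHA and ACADSB lie below the line.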

How the data were processed

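Splicing in polyadenylated RNA of HEK293T cells was compared between 1 control library and 1 library treated with amiloride. The authors aligned reads and ran rMATS, and the submitters' processing notes name STAR 2.5.1 and hg19/GRCh37; the rMATS version is not given in the sources used here. The 5 deposited tables hold the authors' own comparison of the libraries, with a p-value, a FDR and an inclusion level difference per event. The FDR, the difference, the effective lengths and the coordinates were used as deposited, and no test was computed, since there is 1 library per condition. For each library the tables also give reads and inclusion levels, in 30 columns that were left out, because the headers number the libraries without saying which was treated, so neither depth nor direction after amiloride is given. In 200 of 200 skipped-exon events of the members the effective length of the inclusion form equalled that of the skipping form (125 bases) plus the exon, so reads on exon bodies were counted.

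Exons were defined by chromosome, strand, start and end, given 1-based, and numbered along canonical transcripts (GENCODE release 44, coordinates lifted to GRCh37). Sequences were read from the GRCh37 genome. Site scores used base frequencies at 300873 annotated 5'SS and 300290 annotated 3'SS with a pseudocount of 0.5. A check on simulated data covered only motif frequencies and the marking of exons by FDR, in code of its own. Exon numbering, flanks and reading frames were not covered. Every member was described, with its exon of lowest FDR and its called exon of largest difference; of the other fatty acid oxidation genes, the 3 with the highest share of sensitive exons among those with at least 5 exons and those with none were named. The members and lists were chosen with earlier results of these data known. Alternatives were a FDR under 0.05 or 0.01, a size of 0.1 or more, canonical exons with neighbouring flanks only, exons between AG and GT only and exons with exactly 1 event. Python 3.11.15, numpy 2.4.6, pandas 2.3.3 and matplotlib 3.10.9 were used.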

Additional observations from a re-analysis of the deposited data

How the results depend on the processing

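At a FDR under 0.05 the members had 31 skipped-exon calls, 21 mutually exclusive exon calls and 26 sensitive exons, while 1 of the 2 calls at the 5'SS of ACAD9 was left. At a FDR under 0.01 there were 23 skipped-exon calls, 14 mutually exclusive exon calls, 0 calls at an alternative 5'SS and 20 sensitive exons, and 8 of the 9 genes still had a sensitive exon. When sizes of 0.1 or more were required there were 19, 1 and 1 calls in these tables, 0 retained intron calls, 18 sensitive exons in 6 genes, and 33 sensitive exons in the other fatty acid oxidation genes. Among canonical exons with an event flanked by their neighbours, 16 of 70 were sensitive in such events. Exons with exactly 1 event gave 12 of 39. The median difference was 0.054 over called events and 0.012 over 1 event per exon, that of lowest FDR. These settings remove events by construction. The shares of all events or exons that meet these settings are not given, so these counts are not set beside a background. Restriction to exons between AG and GT left 31 sensitive exons, and the alternative 3'SS table gave 0 calls at each threshold.

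No paired analysis was possible because the design holds a single library of either kind, with no replicate number in the columns. The reads behind each event limit its value and were not used, and the spread between replicates cannot be had from 1 library per condition.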
